A study of Mus musculus with 6 samples.

Results

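The 10 genes described here encode the mouse MHC class I antigen presentation machinery: the classical heavy chains H2-K1 and H2-D1, the class Ib (non-classical) heavy chains H2-Q10, H2-Q4, H2-Q6, H2-Q7 and H2-T23, the light chain beta-2 microglobulin (B2m), and the peptide transporter subunits Tap1 and Tap2. They were selected by name, as listed symbols, out of 30406 genes measured in all 6 libraries, and all 10 were found in every library. Earlier results of the same libraries were in view when they were selected, among them KO against WT values in zona glomerulosa-like nuclei. Those values, and calls made from them, are therefore given as a description, and nothing is read from the calls. The study measured nuclear RNA in adrenal glands of mice with and without Tmem127, a gene for a transmembrane protein of endosomes and lysosomes whose loss in people predisposes to phaeochromocytoma. Each library came from 1 pair of frozen whole adrenals of a female C57BL/6 J mouse aged 10 to 11 months, from which DAPI-stained nuclei were sorted and sequenced with the 10x Genomics 3′ v3 chemistry. There were 2 libraries labelled Tmem127 KO and 3 labelled WT. No treatment is named, and the allele, and whether Tmem127 was deleted in every tissue, are not given in the sources used here. A further library has a WT title and a KO genotype entry, so it was left unassigned and entered no comparison. Tmem127 itself stood at 45.9 and 45.2 UMIs per 1000000 in all nuclei of the KO libraries and at 38.04, 38.19 and 36.09 in the WT libraries. It was thus not lower with the KO label. The deleted part is not given, so the labels could not be checked from these counts. KO and WT mean the libraries labelled so throughout.

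Class I molecules sit on almost every nucleated cell and show peptides from the cell's own proteins to cytotoxic T cells and NK cells. Proteasomes cut the peptides, the Tap1 and Tap2 pair pumps them into the endoplasmic reticulum, and there a heavy chain folds around peptide and B2m before it moves to the surface. Interferons raise the genes through IRF and STAT factors, NF-kappaB and the coactivator Nlrc5. H2-Q10 is secreted and is known mainly from liver, H2-T23 encodes Qa-1, a ligand of NKG2 receptors on NK cells, and H2-Q6 and H2-Q7 encode Qa-2. Steroid-producing cells of the adrenal cortex are arranged in an outer zona glomerulosa, which makes aldosterone, and an inner zona fasciculata, which makes glucocorticoids, around a medulla of chromaffin cells, which make catecholamines.

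In GRCm38, 9 of the 10 genes lie on chromosome 17, in the H2 complex. H2-K1 spans chr17:33996017-34000347 on the minus strand, and is followed by Tap1 (chr17:34187553-34197225) and Tap2 (chr17:34203527-34216321). H2-D1 (chr17:35262730-35267499) and the Q genes follow, H2-Q10 at chr17:35470089-35474563. B2m lies at chr2:122147686-122153083, 5095 kb from Tmem127 (chr2:127247908-127261107). RefSeq promoter windows (GRCm38.p6, 250 bases before to 50 after a start) were matched for 9 genes, all but Tap2. They were searched on both strands for GAANNGAAA, a motif like the core of an interferon-stimulated response element, and GGGNNTTCC, a kappaB-like motif. Their matches do not overlap in any window printed here. The first motif was in 7.52% of 32851 windows, the second in 5.82% and both in 0.42%. Of the 9 genes, 6 held the first (H2-K1, H2-D1, H2-Q10, H2-Q4, H2-Q6 and H2-Q7) and 5 held both, while H2-T23, B2m and Tap1 held neither as spelled here. Other spellings or spacings of such elements were not searched. The B2m window, for example, holds gaaactgaaa, which the first motif does not match. The aligned 100-base stretches of 4 heavy chains are shown because H2-K1 and H2-D1 went together in the nuclei and H2-Q10 went apart from them. Bases are lower case on the gene's strand, 5′ to 3′, and capitals mark motif matches.
H2-K1, chr17:34000394-34000493, minus strand: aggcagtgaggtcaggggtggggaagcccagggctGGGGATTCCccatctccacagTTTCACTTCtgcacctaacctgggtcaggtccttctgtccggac
H2-D1, chr17:35262888-35262987, plus strand: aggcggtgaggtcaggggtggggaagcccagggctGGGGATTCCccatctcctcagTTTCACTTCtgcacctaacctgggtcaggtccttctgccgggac
H2-Q7, chr17:35438986-35439085, plus strand: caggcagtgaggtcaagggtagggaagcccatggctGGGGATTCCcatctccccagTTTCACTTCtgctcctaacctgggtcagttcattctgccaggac
H2-Q10, chr17:35469878-35469977, plus strand: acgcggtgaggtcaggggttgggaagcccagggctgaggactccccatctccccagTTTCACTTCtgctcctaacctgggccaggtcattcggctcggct
H2-Q10 was the gene of the 6 heavy chains with the GAANNGAAA match that lacked the kappaB-like match. Where H2-K1 reads ggggattcc, which starts 21 bases before the start of TTTCACTTC, H2-Q10 reads gaggactcc, which differs by G2A and T6C, positions counted from 1 at the first base of the H2-K1 match. A match, or its absence, describes these letters only.

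The heavy chains are close copies of each other, which bears on how far their counts can be told apart. Their coding sequences were 81.8% to 95.4% identical in pairs, highest for H2-Q6 and H2-Q7. The libraries are 3′-tagged, and of the 90-base words in the last 500 bases of H2-Q6 transcripts 26.9% were also found in another gene's transcript, 21.4% in H2-Q7. That share was 13.4% for H2-T23, 9.5% for H2-Q4, 4.7% for H2-Q7, 0.2% for H2-K1 and 0.0% for H2-D1, H2-Q10, B2m, Tap1 and Tap2. The counts of H2-Q6, and to a lesser degree H2-T23 and H2-Q4, are therefore uncertain.

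After quality filters and doublet removal 20982 nuclei of 21724 barcodes remained, in 22 clusters made without the class I genes. Clusters with a fixed marker list's genes were named after it: 4618 endothelial-like, 3228 zona glomerulosa-like, 2695 capsule or fibroblast-like, 2198 zona fasciculata-like, 1059 chromaffin-like, 980 macrophage-like, 445 adipocyte-like, 289 T or NK-like and 176 Schwann or sustentacular-like nuclei. Cluster 2 (2160 nuclei, led by Cthrc1 and Oca2), cluster 3 (1858, zona fasciculata genes with the X-zone genes Cyp2f2 and Akr1d1), cluster 12 (504, fibroblast with smooth muscle genes) and cluster 14 (382, chromaffin with neuron genes) kept numbers. These 13 classes and all nuclei summed gave 14 comparisons, and B or plasma-like (207) and mesothelium-like (133) nuclei were too few for one. The defining markers of the adrenal label were present, 9 of 11 zona glomerulosa (5 in the second of the 2 clusters so named), 9 of 10 zona fasciculata and 10 of 10 chromaffin genes, and 50 hepatocyte-like nuclei, 47 of them in KO replicate 1, were not adrenal by theirs. The libraries held 4825169 to 43377724 UMIs, and 72 barcode sequences occurred in more than one of them. Median UMIs per barcode were 5419 in KO replicate 1 against 7675 in WT replicate 1, which share a gene annotation and a Cell Ranger version (a batch here), and 1289 in KO replicate 2 against 1783 and 4114.5 in WT replicates 2 and 3 of the other batch, so KO libraries were the shallower in both.

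Among the classes H2-K1, a classical heavy chain, was highest in T or NK-like nuclei and lowest in chromaffin-like nuclei. Levels are UMIs of a gene per 1000000 UMIs of the same class and library (CPM), with the mean ± SD over the 5 grouped libraries. They are not divided by gene length and are compared between classes, not between genes. H2-K1 stood at 1849 ± 438 CPM in T or NK-like, 988 ± 324 in endothelial-like, 856 ± 269 in macrophage-like and 506 ± 161 in Schwann or sustentacular-like nuclei. The steroid-producing classes lay below these, with zona fasciculata-like at 341 ± 237 CPM and zona glomerulosa-like at 207 ± 130, beside 356 ± 230 in adipocyte-like, 202 ± 78.9 in capsule or fibroblast-like and 157 ± 74.7 in chromaffin-like nuclei. The numbered clusters were at 399 (cluster 3), 324 (cluster 2), 272 (cluster 12) and 169 CPM (cluster 14). Every pair of neighbours in this order had overlapping libraries. The gap exceeded the larger of the 2 SDs between T or NK-like and endothelial-like nuclei (861 against 438 CPM) and between macrophage-like and Schwann or sustentacular-like nuclei (350 against 269), and stayed within it for the other 10 pairs. Within libraries these 2 pairs kept their order in 5 of 5, as did cluster 3 over adipocyte-like nuclei and capsule or fibroblast-like nuclei over cluster 14. H2-D1, the other classical heavy chain, had the same 3 classes on top: 202 ± 86.7 CPM in T or NK-like, 174 ± 88.6 in macrophage-like and 143 ± 43.5 in endothelial-like nuclei, with zona glomerulosa-like lowest at 19.9 ± 13.6. The classes were made by clustering these nuclei, so their differences are described and not tested.

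**Figure D1:**
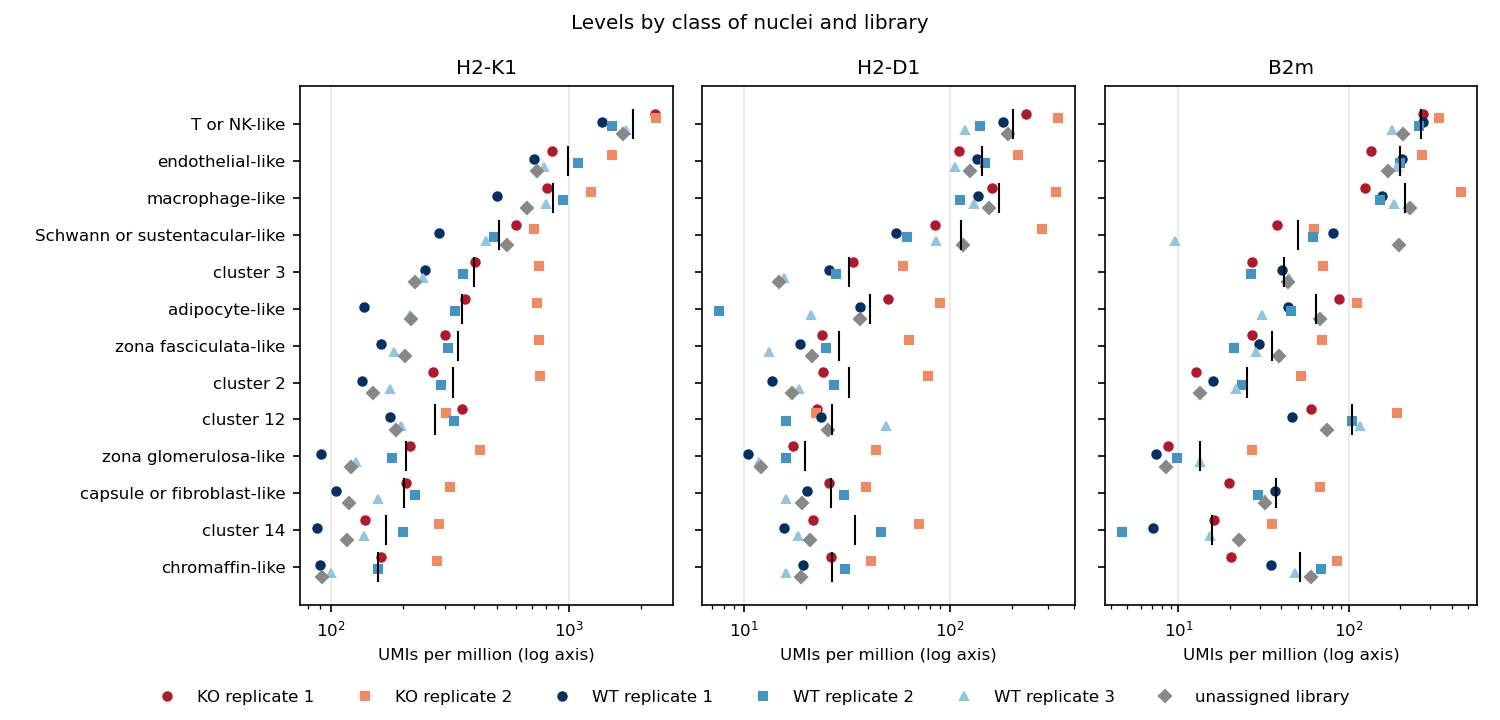
CPM (log axis) of H2-K1, H2-D1 and B2m in 13 classes of nuclei (vertical axis, ordered by H2-K1), one point per library, with a black line at the mean of the 5 grouped libraries. T or NK-like, endothelial-like and macrophage-like nuclei lie to the right in each panel, and KO replicate 2 (orange squares) is the highest H2-K1 point of the grouped libraries in 12 of 13 classes.

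B2m, the light chain that every class I heavy chain needs, followed the immune and vascular classes, at 263 ± 56.4 CPM in T or NK-like, 213 ± 135 in macrophage-like and 199 ± 47.4 in endothelial-like nuclei. It was lowest in zona glomerulosa-like nuclei, at 13.3 ± 8.05 CPM, just under cluster 14 at 15.7 ± 12.1, and its neighbours in the order overlapped throughout, with a gap above the larger SD in 1 pair, endothelial-like over cluster 12 (95.4 against 57.3 CPM, the same order in 5 of 5 libraries). Tap1 was at 37.9 ± 13.4 CPM in T or NK-like, 30.1 in macrophage-like and 3.81 ± 1.18 in zona glomerulosa-like nuclei. Tap2 was at 87.8 ± 62.8 CPM in T or NK-like and 13.3 ± 3.75 in zona glomerulosa-like nuclei, again the lowest class. In Schwann or sustentacular-like nuclei Tap2 was at 61.9 to 66.8 CPM, and in endothelial-like nuclei at 35.4 to 60.6. The former class had 21 to 39 nuclei in each grouped library. There 1 UMI came to 31.1 CPM in KO replicate 2 and 12.4 in WT replicate 2. Its narrow range thus rests on few UMIs, and nothing is read from it or from the gap. H2-D1, B2m and Tap2 thus shared their lowest class, while that of H2-K1 was chromaffin-like nuclei and that of Tap1 was cluster 14.

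All class Ib genes but H2-Q10 had their highest mean in T or NK-like nuclei. H2-Q7 was at 407 ± 105 CPM in T or NK-like nuclei (298 to 541 in the 5 libraries) and 79.3 ± 16.99 in endothelial-like nuclei (61.3 to 102), with no overlap between the 2 classes, and at 2.88 in chromaffin-like nuclei. H2-Q4 was at 128 ± 65.5 CPM in T or NK-like, 55.9 ± 28.0 in Schwann or sustentacular-like, 52.9 ± 18.4 in endothelial-like and 6.81 ± 2.46 in zona glomerulosa-like nuclei, and it had 0 UMIs in cluster 14 in every library, where a count of 0 allows up to 2.13 to 21.2 CPM, depending on the library's depth. H2-Q6 was at 102 ± 83.8 CPM in T or NK-like and 40.6 ± 7.80 in endothelial-like nuclei, at 12.04 in adipocyte-like and at 1.63 in zona glomerulosa-like nuclei. H2-T23 was sparse, 292 UMIs in all nuclei of the 5 libraries, and did not exceed a mean of 16.2 CPM (T or NK-like). H2-Q10 had a different order: adipocyte-like nuclei led at 133 ± 127 CPM, and the other 12 classes had means of 0 to 9.35.

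**Figure D2:**
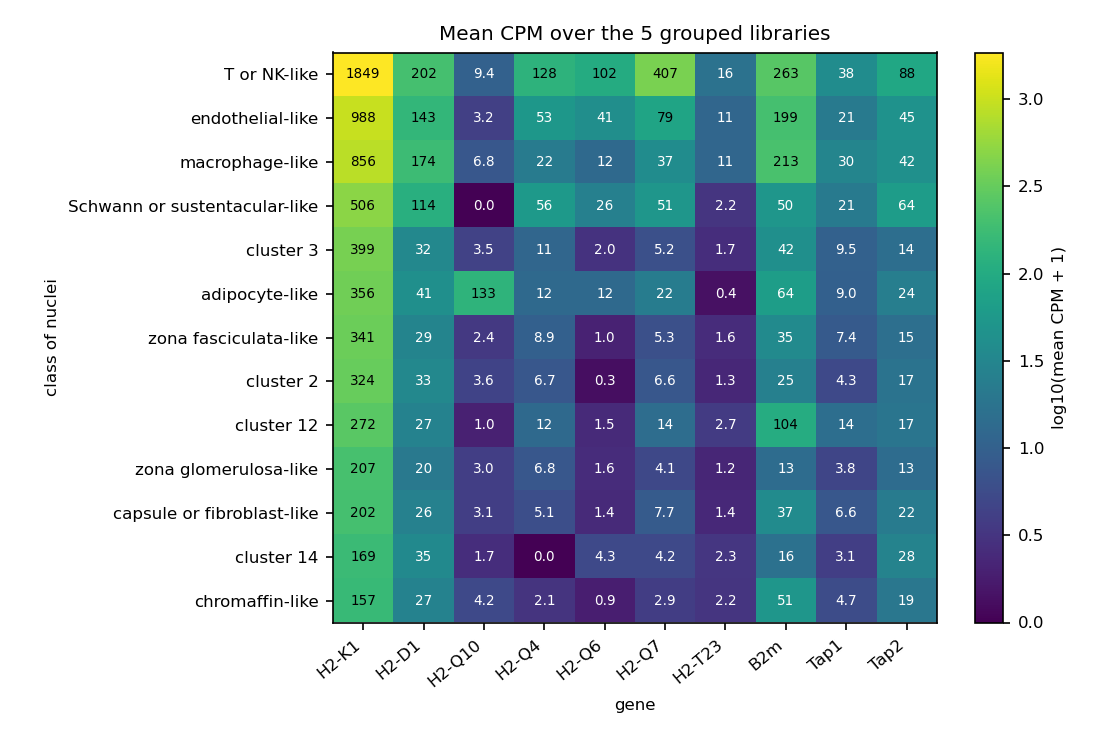
Mean CPM over the 5 grouped libraries for the 10 genes (columns) in 13 classes (rows, ordered by H2-K1), with colour on a log10(CPM + 1) scale; values are not divided by gene length, so rows are compared within a column. The T or NK-like row is brightest for 9 genes, and H2-Q10 is brightest in adipocyte-like nuclei.

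The genes most like H2-K1 were found by Pearson r of log2(CPM + 1) over 78 points, 13 classes in 6 libraries, among 11831 genes with a mean of at least 5 CPM. The points share libraries and depth, so r is a description. Outside the class I list these included Nlrc5 (r = 0.79), the class I coactivator, Nedd9 (0.78), Ifi206 (0.77) and Cdk17 (0.76). Of the class I genes H2-D1 was at r = 0.88, B2m, H2-Q7 and H2-Q4 at 0.76, Tap1 at 0.70, Tap2 at 0.44, H2-T23 at 0.41 and H2-Q10 at 0.22. The genes most like B2m were Nedd9 (0.78), Tgfb1 (0.77), Gvin1 (0.76), Gm4070 (0.76) and Cdk17 (0.75). For H2-Q10 they were Acaa1b (0.76), Pck1 (0.73), Ctcflos (0.73), Ces1d (0.72) and Acsl1 (0.72), of which Acaa1b, Pck1, Ces1d and Acsl1 encode enzymes of lipid or glucose metabolism. H2-Q10 had r of 0.24 or less with each of the other 9 class I genes.

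In KO against WT, zona glomerulosa-like nuclei had more H2-K1 UMIs in the KO libraries. H2-K1 was at 214 and 424 CPM in KO replicates 1 and 2 and at 90.7, 180 and 127 CPM in WT replicates 1, 2 and 3. Both KO values lay above every WT value, and the unassigned library was at 122 CPM. The ratio was 2.36 within the first batch and 2.76 within the second, and the edgeR log2 fold was 1.36 ± 0.15 (SE). H2-Q6 and H2-T23 did not pass the filter on low counts. The 8 members that passed it had folds above 0 (median 0.81, against 0.02 for all genes tested), and in 7 of them both KO libraries lay above every WT library, which held for 14.2% of the genes tested. The edgeR quasi-likelihood test at a Benjamini-Hochberg adjusted p under 0.05 called 44 of 11454 genes (0.384%), and H2-K1 was the member among them. These values had part in the choice of the genes, so nothing is read from that count.

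H2-K1 also differed in the same direction in the other comparisons, which use the same 5 libraries and are not independent of the first. Its fold was above 0 in 14 of 14 comparisons, from 0.49 ± 0.18 in endothelial-like to 1.47 ± 0.29 in adipocyte-like nuclei. Beside the zona glomerulosa-like value, 11 of the 13 other comparisons had an unadjusted p under 0.05 and none of the 13 passed adjustment. Adipocyte-like nuclei of the KO libraries had 366 and 733 CPM, those of WT 138, 332 and 214 (adjusted p = 0.053, edgeR). Endothelial-like nuclei had 847 and 1509.8 CPM with the KO label, 709.5, 1088 and 786 with the WT label, and T or NK-like nuclei 2305 and 2310.3 in KO and 1373, 1521 and 1736 in WT. The groups overlapped in endothelial-like nuclei and did not in adipocyte-like and T or NK-like nuclei. In zona fasciculata-like nuclei H2-K1 was at 299.97 and 747 CPM in the KO libraries, and the WT libraries had 162, 311 and 184 CPM, with overlap (1.27 ± 0.28). Both KO libraries lay above every WT library for H2-K1 in 6 of 14 comparisons: zona glomerulosa-like, adipocyte-like, T or NK-like, chromaffin-like, Schwann or sustentacular-like nuclei and cluster 3. In each of these 6 the same held for 8.66% to 14.2% of all genes tested. The 6 share their libraries, so they are not separate results.

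H2-K1 was set beside the depth of the libraries. KO replicate 2, the shallowest library, had the highest H2-K1 CPM of the grouped libraries in 12 of 13 classes, and WT replicate 1, the deepest, the lowest in 12. Among the WT libraries of one batch the shallower WT replicate 2 stood above WT replicate 3 in 12 of 13 classes. KO replicate 1 lay above WT replicate 1 in 13 of 13 classes and above the shallower WT replicate 2 in 7. It also lay above WT replicate 3, which is the shallower of that pair, in 13 of 13, so there the deeper library was the higher one. WT replicates 2 and 3 are of the other batch than KO replicate 1, so depth and batch cannot be told apart in these pairs. With the median UMIs per nucleus of a library in place of batch, an alternative added after the data were seen, the H2-K1 fold was 0.95 ± 0.11 in zona glomerulosa-like nuclei, 0.99 ± 0.26 in adipocyte-like and 0.19 ± 0.16 in endothelial-like nuclei. It stayed above 0 in all 14 comparisons.

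**Figure D3:**
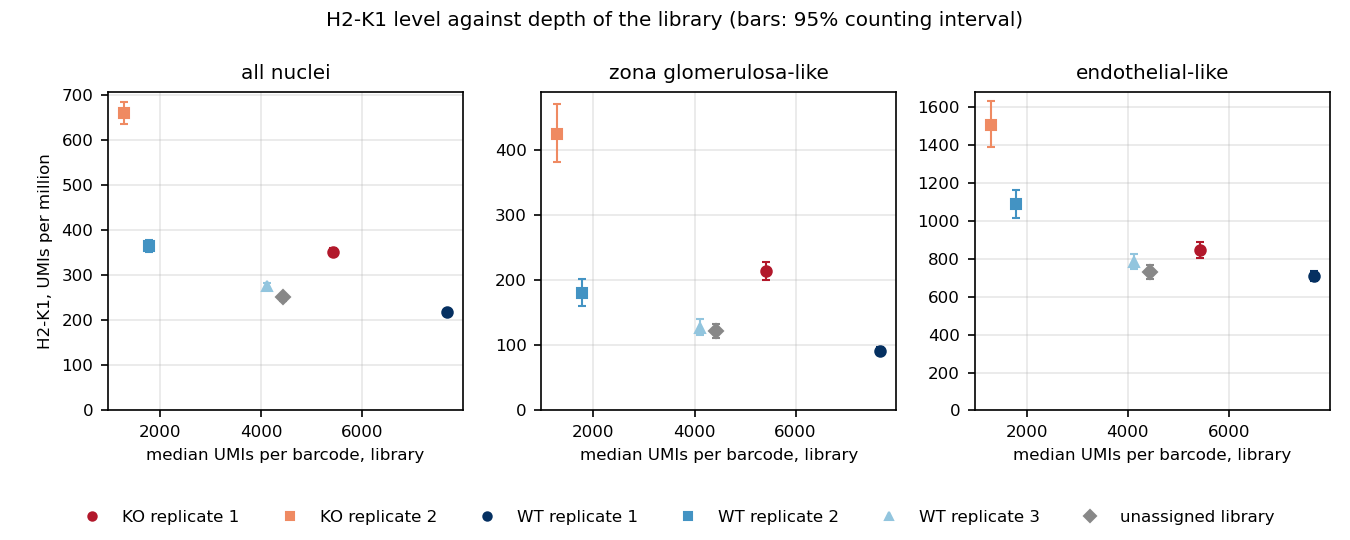
H2-K1 CPM (vertical axes from 0, different scales) against the median UMIs per barcode of each library in all nuclei, zona glomerulosa-like and endothelial-like nuclei, with bars for the exact 95% Poisson counting interval. KO replicate 2, at a median of 1289 UMIs, is highest in each panel and WT replicate 1, at 7675, lowest.

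H2-D1, the second classical heavy chain, was at 17.4 and 43.7 CPM in KO and at 10.5, 16.01 and 11.9 in WT zona glomerulosa-like nuclei, with both KO libraries above every WT library. Its fold was above 0 in 12 of the 12 comparisons it entered, from 0.25 to 1.43, and none passed adjustment (6 with an unadjusted p under 0.05). B2m behaved differently between the batches. In zona glomerulosa-like nuclei it was at 8.7 and 27.1 CPM in KO and at 7.4, 9.9 and 13.4 in WT, so the groups overlapped. KO replicate 1 lay above WT replicate 1 for B2m in 5 of 13 classes, whereas KO replicate 2 lay above both WT replicates 2 and 3 in 13 of 13. The B2m fold was above 0 in 10 of 12 comparisons (−0.07 to 1.32) and none passed adjustment (2 with an unadjusted p under 0.05). In adipocyte-like nuclei KO replicates 1 and 2 had B2m at 87.99 and 112 CPM, and the WT libraries had 43.9, 45.7 and 30.8, without overlap (1.32 ± 0.40, adjusted p = 0.33).

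Of the transporter genes, Tap1 entered 7 comparisons, 5 with a fold above 0 (−0.26 to 0.54), and Tap2 entered 12, 7 above 0 (−0.32 to 0.61), and none had an unadjusted p under 0.05. In zona glomerulosa-like nuclei Tap2 was at 15.96 and 17.7 CPM in KO and at 12.3, 8.0 and 12.5 in WT, without overlap (0.50 ± 0.31). In cluster 14 Tap2 was lower in both KO libraries, with means of 21.9 CPM in KO and 32.5 in WT, where KO replicate 2 had 2 UMIs. Both KO libraries lay above every WT library for Tap1 in 3 of the 7 comparisons, which were all nuclei (10.2 against 7.99 CPM in the means), macrophage-like (40.4 against 23.2) and zona glomerulosa-like nuclei (4.90 against 3.08). In each of these 3 the same held for 9.04% to 14.2% of all genes tested. Of the class Ib genes H2-Q4 entered 10 comparisons, all above 0 (0.03 to 2.45, 1 with an unadjusted p under 0.05), H2-Q7 entered 10, 6 above 0 (−0.38 to 1.57), H2-Q6 entered 3, 0 above 0 (−0.75 to −0.03), and H2-T23 entered 2 (−0.13 and 0.31). edgeR called none of these, and H2-Q6, H2-Q7 and H2-T23 had none with an unadjusted p under 0.05. DESeq2 called H2-K1 and H2-Q10 in all nuclei, H2-K1 in zona glomerulosa-like nuclei, H2-Q10 in adipocyte-like nuclei and H2-K1 in cluster 2, and no other member. All nuclei include the hepatocyte-like nuclei, which held 388 of the 666 H2-Q10 UMIs of KO replicate 1. In that comparison 7 of 8 hepatocyte genes tested had an unadjusted p under 0.05 (edgeR, median log2 fold 3.80). Nothing is therefore read from the H2-Q10 call in all nuclei. Nothing is read from the zona glomerulosa-like call, since those values had part in the choice of the genes.

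**Figure D4:**
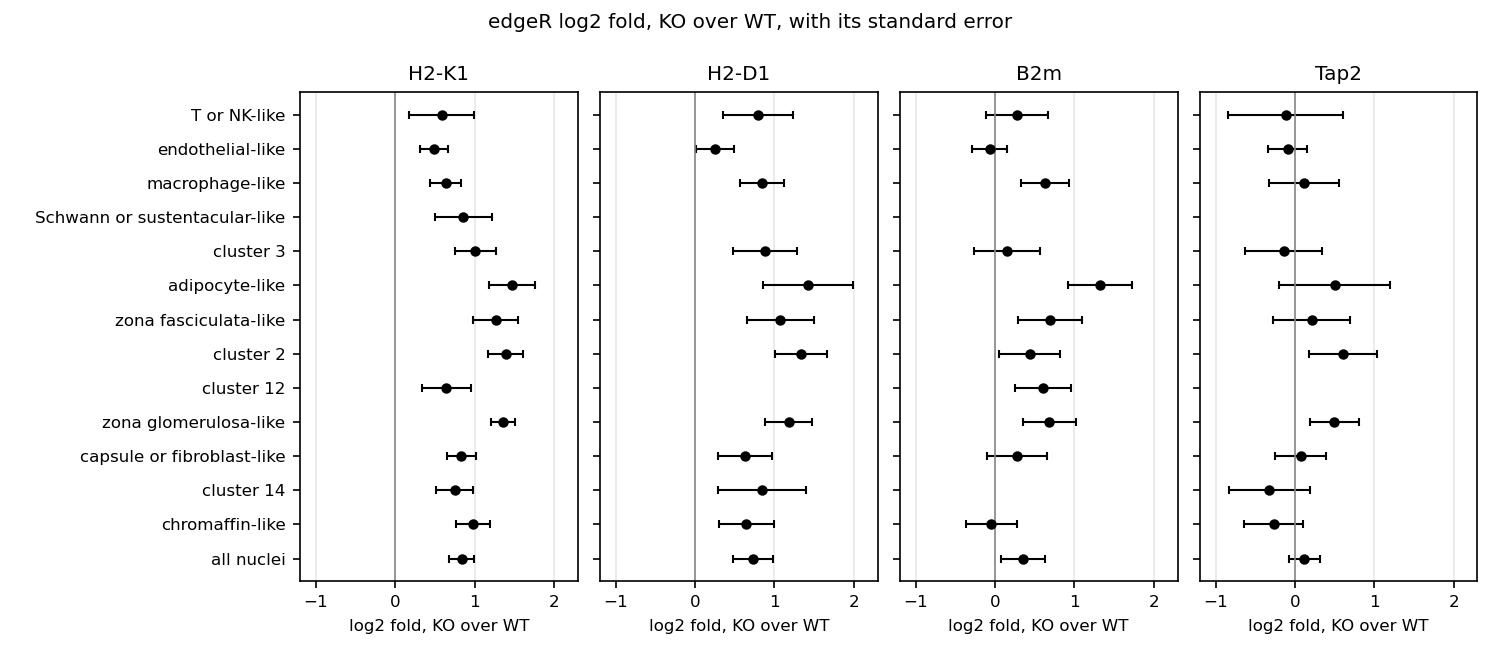
edgeR log2 fold of KO over WT with its standard error for H2-K1, H2-D1, B2m and Tap2 (panels) in 13 classes and all nuclei (vertical axis); classes where a gene did not pass the filter on low counts are blank. H2-K1 lies right of 0 in 14 of 14 and Tap2 on both sides.

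The counts of members are set beside the shares over all genes tested. Those of all nuclei include H2-Q10, with 388 of its 666 UMIs in KO replicate 1 from hepatocyte-like nuclei. edgeR called 0.253% of genes in adipocyte-like nuclei (1 of 7 members, H2-Q10), and 0.0697% in macrophage-like, 0.0193% in capsule or fibroblast-like, 0.0095% in endothelial-like nuclei and 0.00913% in cluster 2, with 0 members called in these. It called 0.0% in all nuclei (0 of 16573 genes, 1153 with an unadjusted p under 0.05, 57 by DESeq2), T or NK-like (146 and 2), chromaffin-like (547 and 14), zona fasciculata-like (228 and 3), Schwann or sustentacular-like nuclei (100 and 0) and clusters 3 (253 and 0), 12 (162 and 0) and 14 (251 and 0). Members with an unadjusted p under 0.05 numbered 5 of 7 in adipocyte-like nuclei (7.48% of all genes tested), 3 of 10 in all nuclei (6.96%), 3 of 8 in cluster 2 (5.19%), 3 of 7 in macrophage-like (5.30%), 2 of 5 in chromaffin-like (5.25%) and 2 of 7 in zona fasciculata-like nuclei (2.02%) and 2 of 8 in cluster 3 (2.44%). They were 1 of 1 in Schwann or sustentacular-like (3.86%), 1 of 3 in cluster 14 (4.43%), 1 of 6 in capsule or fibroblast-like (6.56%), 1 of 9 in endothelial-like (3.34%), 0 of 7 in T or NK-like nuclei (5.01%) and 0 of 2 in cluster 12 (3.06%). Both KO libraries lay above every WT library in 6 of 7 members in adipocyte-like nuclei (11.1% of all genes tested), 4 of 7 in T or NK-like (11.8%), 4 of 8 in cluster 3 (12.2%), 3 of 10 in all nuclei (13.1%), 3 of 8 in cluster 2 (10.7%), 2 of 5 in chromaffin-like (12.9%) and 2 of 7 in macrophage-like nuclei (9.04%). The count was 1 of 7 in zona fasciculata-like (9.85%), 1 of 1 in Schwann or sustentacular-like (8.66%), 0 of 9 in endothelial-like (10.4%) and 0 of 6 in capsule or fibroblast-like nuclei (10.4%), 0 of 3 in cluster 14 (9.02%) and 0 of 2 in cluster 12 (9.27%). A member can pass the low-count filter through the KO libraries alone, as H2-Q10 did in chromaffin-like nuclei and clusters 2 and 3. It had 28, 29 and 26 UMIs there in KO and 0, 2 and 6 in WT. The member counts are therefore a description. The median fold of the members was 1.43 in adipocyte-like nuclei (−0.02 over all genes) and −0.09 in endothelial-like nuclei (0.01).

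The KO effect in zona glomerulosa-like nuclei was set against that in 3 other classes, as a class by genotype term in edgeR with library as a block. It uses the zona glomerulosa-like values that had part in the choice of the genes, so the differences are given with their standard errors and as a description. The H2-K1 effect there exceeded that in endothelial-like nuclei by 0.83 ± 0.16 log2 units. The same difference was 0.90 ± 0.25 for H2-D1, 1.36 ± 0.38 for H2-Q7 and 1.87 ± 0.66 for H2-Q6. It was 0.69 ± 0.32 for B2m, 0.66 ± 0.47 for Tap1, 0.48 ± 0.33 for Tap2 and 0.53 ± 0.37 for H2-Q4. For H2-Q10 it was 0.70 ± 0.94 and for H2-T23 1.05 ± 0.87. H2-Q6 and H2-T23 had not passed the low-count filter in zona glomerulosa-like nuclei alone, nor H2-Q10 in endothelial-like nuclei. Against capsule or fibroblast-like nuclei the difference was 0.50 ± 0.18 for H2-K1, and against zona fasciculata-like nuclei 0.07 ± 0.21. None of the members' differences passed adjustment over all genes in any of the 3 (0.0256%, 0.034% and 0.0% of genes called, in that order), so no KO effect was shown to be particular to zona glomerulosa-like nuclei.

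Detection was also compared at one depth, by thinning each nucleus to 1000 UMIs and leaving out shallower nuclei. The share of zona glomerulosa-like nuclei with an H2-K1 UMI was then 26.0% ± 8.84 (SD, n = 2) in KO and 13.2% ± 3.86 (n = 3) in WT, against 38.5% to 70.4% over the 5 libraries before thinning. It was 40.9% ± 15.1 and 20.6% ± 7.19 in adipocyte-like, 57.3% ± 8.02 and 49.5% ± 1.46 in endothelial-like and 83.4% ± 8.58 and 72.5% ± 8.42 in T or NK-like nuclei. KO means lay above WT means in each of these classes, and in endothelial-like nuclei by less than the SD of the KO libraries. These shares were not tested. Class I heavy chains are made by nearly all cells, so no class served as a measure of free RNA for them.

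H2-Q10, the secreted heavy chain, was examined beside Alb, Apoa2 and Ttr, which encode abundant liver plasma proteins. In adipocyte-like nuclei H2-Q10 was at 178 and 337 CPM in KO (89 and 45 UMIs) and at 52.7, 34.3 and 61.6 CPM in WT (36, 9 and 32 UMIs), and at 51.7 in the unassigned library. Of the 45 UMIs of KO replicate 2, 1 nucleus held 15, and 28 lay in nuclei with no UMI of the 3 liver genes. In KO replicate 1 the most in 1 nucleus was 15 of 89, and 83 lay in nuclei with none. In WT 1 nucleus held at most 6. Both KO libraries lay above every WT library, with a log2 fold of 2.32 ± 0.35 (adjusted p = 0.030, edgeR). The ratio was 3.38 within the first batch and 7.02 within the second. At 1000 UMIs a nucleus, 15.6% ± 1.39 of adipocyte-like nuclei had an H2-Q10 UMI in KO and 5.43% ± 0.60 in WT (8.99% to 50.8% before thinning). The share was 0.88% ± 0.52 in KO chromaffin-like nuclei, and no WT library had an H2-Q10 UMI there. Library median depths were 1732 to 11972 UMIs in adipocyte-like and 2429 to 15658 in chromaffin-like nuclei. The call was lost in 7 of 18 alternatives (adjusted p up to 0.36), among them leaving out KO replicate 2 (1.78, adjusted p = 0.35).

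The 3 liver genes together were rare in adipocyte-like nuclei: 5 and 6 UMIs in KO and 0, 12 and 1 in WT. H2-Q10 came to 1780 UMIs per 100 of theirs in KO replicate 1 and 750 in KO replicate 2 (exact 95% intervals 735 to 5616 and 319 to 2151). In the 47 hepatocyte-like nuclei of KO replicate 1, where H2-Q10 was at 622 CPM (388 UMIs) and the 3 genes at 2270.0 CPM, it came to 27.4 per 100 (24.4 to 30.7). At that ratio 1.37 and 1.65 H2-Q10 UMIs would stand beside the liver gene UMIs in the adipocyte-like nuclei of the KO libraries, where 89 and 45 were counted. In adipocyte-like nuclei with 0 UMIs of all 3 genes, H2-Q10 was at 178 and 239 CPM in KO and at 52.7, 33.7 and 62.1 in WT, again without overlap. The log2 fold in these nuclei was 2.04, and edgeR did not call it.

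Outside adipocyte-like and hepatocyte-like nuclei H2-Q10 was low and stood mostly in KO replicate 1. Over the 12 other classes compared it had 186 UMIs (9.71 CPM) in KO replicate 1, 21 (4.796 CPM) in KO replicate 2, 24 (0.613), 5 (0.670) and 6 (0.342) in WT replicates 1 to 3 and 17 (0.872) in the unassigned library. KO replicate 1 lay above WT replicate 1 in 12 of 13 classes. In chromaffin-like nuclei it had 24 and 4 UMIs in KO and 0 in each WT library, at least 16.6-fold higher in KO by the exact 95% limit of the summed counts. Set against a floor of 3 counts over the WT group, the KO level was 21.9 times that floor. In capsule or fibroblast-like nuclei it had 13 and 4 UMIs and 0 in WT, at least 8.86-fold higher by that limit and 12.2 times the floor. Zona glomerulosa-like nuclei had 39 and 3 UMIs in KO and 3, 2 and 2 in WT, a ratio of summed CPM of 16.9 (7.51 to 44.5). The ratio of the library means was 9.01, with 28.4 within the first batch and 3.88 within the second, and the fit there (3.70 ± 0.74) had part in choosing the genes. These intervals and floors cover counting error only, and KO replicate 2 adds 3 or 4 UMIs to each of these classes.

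The liver genes were spread over the libraries in another way than H2-Q10. Their sum in zona glomerulosa-like nuclei was 5.80 and 9.44 CPM for KO, and 0.22, 15.4 and 4.17 for WT, so the groups overlapped and WT replicate 2 was highest. In KO replicate 1 the H2-Q10 count per 100 UMIs of the liver genes differed between classes. In zona fasciculata-like nuclei it was 24.2 (15.7 to 36.3), with 30 H2-Q10 UMIs counted where 34.0 would stand at the ratio of hepatocyte-like nuclei, and in macrophage-like nuclei it was 44.4 (10.0 to 159). In both the interval held the 27.4 of hepatocyte-like nuclei. The 124 liver gene UMIs of the zona fasciculata-like nuclei lay in 29 nuclei, against 24 in 23 zona glomerulosa-like nuclei, and 25 of the 30 H2-Q10 UMIs lay in nuclei with none. It was higher, with the interval above 27.4, in zona glomerulosa-like (162.5, 95.3 to 282), chromaffin-like (185, 90.3 to 395), endothelial-like (87.0, 45.3 to 166) and capsule or fibroblast-like nuclei (68.4, 31.1 to 146) and in clusters 2 (118, 64.4 to 219) and 3 (92.3, 50.7 to 167). Zona glomerulosa-like nuclei had 39 H2-Q10 UMIs where 6.58 would stand at the hepatocyte-like ratio. In KO replicate 2 the counts were too low to tell the ratio from 27.4 in these classes (zona glomerulosa-like 37.5, 6.41 to 156). WT replicate 2 had many liver gene UMIs and few of H2-Q10, 10.7 per 100 over all nuclei but the hepatocyte-like (5.69 to 18.6). Without the nuclei that held a UMI of the 3 genes, H2-Q10 was at 9.64 and 3.63 CPM in KO and at 0.33, 0.65 and 0.61 in WT zona glomerulosa-like nuclei. H2-Q10 and the 3 liver genes thus stood in 1 ratio neither across the classes of KO replicate 1 nor across libraries. The 3 liver genes did not keep 1 ratio among themselves across libraries either. Alb, Apoa2 and Ttr had 1110, 208 and 372 UMIs in all nuclei of KO replicate 1 and 123, 7 and 4 in WT replicate 2. Nothing is therefore read from the ratios across libraries, and the source of the H2-Q10 UMIs was not tested.

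**Figure D5:**
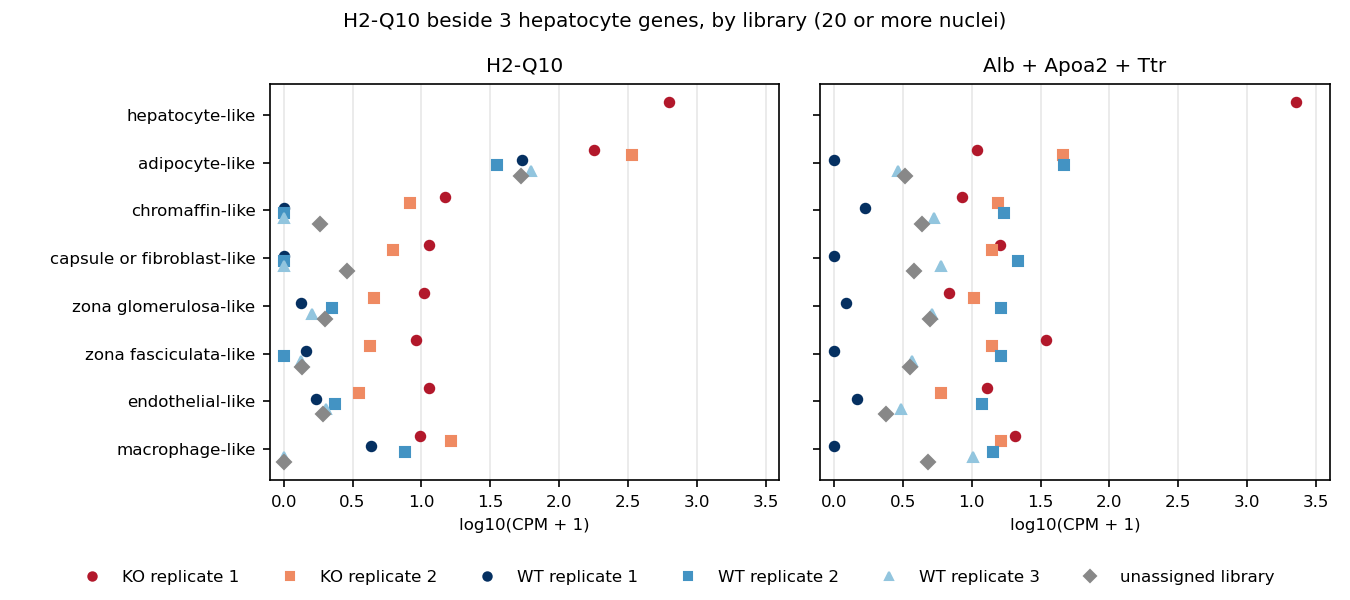
H2-Q10 (left) and the sum of Alb, Apoa2 and Ttr (right), as log10(CPM + 1), in 8 classes of nuclei (vertical axis), one point per library with at least 20 nuclei in the class. The KO libraries (red and orange) are to the right of the WT libraries (blue) for H2-Q10, while for the liver genes WT replicate 2 lies among or above the KO libraries in most classes and WT replicate 1 is near 0.

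Other genes of the pathway were read in zona glomerulosa-like nuclei from lists of genes grouped by function, which were drawn up with earlier results known. They rest on the same zona glomerulosa-like values, so the counts are a description, to be set beside the 11.6% of all genes tested there with an unadjusted p under 0.05 and the 53.1% with a fold above 0. Of 12 regulators of class I tested, 1 was called, Nlrc5, the class I coactivator, at 21.1 CPM in the KO mean and 7.13 in the WT mean (log2 fold 1.73 ± 0.31), and nothing is read from that call. Of the 5 immunoproteasome genes, which make the peptide-cutting subunits induced by interferon, all had a fold above 0 and 0 were called (median 0.37, 1 with an unadjusted p under 0.05), Psme1 at 11.98 and 9.37 CPM and Psmb10 at 10.5 and 5.15 in the KO and WT means. Of 9 peptide loading and trimming genes 3 were above 0 and 0 were called (median −0.08, 2 with an unadjusted p under 0.05), with Lnpep at 277 and 308 CPM and Canx at 109.8 and 120.2. Of 11 interferon response genes 9 were above 0 and 0 called (median 0.19, 4 with an unadjusted p under 0.05), with Rnf213 at 112 and 97.1 CPM and Ifi27 at 69.8 and 77.6. Of 8 genes of interferon receptors and signalling 5 were above 0 and 0 called (median 0.09, 0 with an unadjusted p under 0.05), with Jak1 at 179 and 188 CPM and Ifnar2 at 53.7 and 44.8. Of 4 other heavy chain genes 3 were above 0 and 0 called (1 with an unadjusted p under 0.05), Fcgrt at 22.8 and 11.8 CPM and Cd1d1 at 11.6 and 14.9. Class II genes, made by antigen-presenting cells, were low, 2 of 9 passing the filter and 0 called, with Cd74 at 7.01 and 4.09 CPM and H2-DMa at 5.44 and 2.77 (0 with an unadjusted p under 0.05).

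Markers of other cell types were summed in the same nuclei. In zona glomerulosa-like nuclei all 10 T or NK markers were found and their sum was 461 and 470 CPM in KO and 358 to 376 in WT. That of the 10 endothelial markers was 75.2 and 95.6 against 50.4 to 71.4, and the chromaffin, zona fasciculata, X-zone and Schwann or sustentacular sums were also higher in both KO libraries. The sum of the 11 zona glomerulosa markers was lower in both KO libraries (7204 and 7788 against 8337 to 9233 CPM). The macrophage sum was 11.7 to 16.5 CPM and that of 10 hepatocyte markers, Serpina3k at 0, was 0.222 to 16.01, and both overlapped between the groups. Gm42418, a transcript that overlaps ribosomal RNA sequence, was at 14948 and 11336 CPM in KO and 3539 to 6965 in WT zona glomerulosa-like nuclei, and at 15610.4 and 12499.7 against 3777 to 9225 in adipocyte-like nuclei. In adipocyte-like nuclei the Schwann or sustentacular sum was lower in both KO libraries (108 and 127 against 139 to 510.5 CPM, with Sox10, Fabp7 and Sox2 among the markers at 0), and the other marker lists overlapped. The part of these in the class I values was not tested, and a change in the make-up of a class and a change in RNA per nucleus cannot be told apart.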

How the data were processed

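Nuclear RNA of 6 libraries was used as the deposited filtered matrices of UMI counts per gene and barcode, which are raw counts made with Cell Ranger 4.0.0 (KO replicate 1 and WT replicate 1) and 3.1.0 (the others), per the file headers, against mm10 (build and Seurat per the submitters' processing notes). No source used here states how reads from introns or near-identical genes were handled. The gene annotation, whose 2 versions go with those of Cell Ranger, was taken as the batch. The members and lists were chosen with earlier results of these data known. Labels give replicate samples from separate adrenal pairs, and nothing more on the animals, so p-values measure the spread between these samples.

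Barcodes with at least 300 genes and under 5% mitochondrial UMIs were kept (48 removed), and 694 with the highest doublet scores (0.8% per 1000 barcodes) were removed. Clusters came from 2000 variable genes without class I genes, 30 components, a reimplementation of Harmony, 20 neighbours and Leiden clustering at resolution 0.8 (scanpy 1.11.5, leidenalg 0.10.2), and were named from marker lists. UMIs summed per class (at least 20 nuclei in each grouped library) were tested over all genes with edgeR 4.0.16 (R 4.3.3; quasi-likelihood, TMM, filterByExpr, batch and genotype), with Benjamini-Hochberg adjustment at 0.05. DESeq2 1.42.0 was an alternative. Data were simulated for zona glomerulosa-like nuclei (11454 genes) with the same fixed dispersion for every gene and no batch effect. Of these, 49 of 100 genes with a log2 fold of 1 and 86 of 100 with a fold of 2 were recovered, with 1 false call. The measured libraries have a batch and their own spread, so these counts do not give the recovery or false calls there. Intervals are exact at 95% (Poisson, or conditional binomial for ratios) and cover counting error only, as do floors of 3 counts. Libraries held 4825169 to 43377724 UMIs, so sparse genes are least precise in KO replicate 2. Named genes are the 10 members, Alb, Apoa2 and Ttr, the called genes of each list (else the 2 of highest mean CPM) and the 5 genes most like H2-K1, B2m and H2-Q10. Other genes named (cluster leaders, markers at 0 and Gm42418) were chosen after their values were seen. Not every gene that met the naming rule or belongs to a marker list is reported here.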

Additional observations from a re-analysis of the deposited data

Results flagged for a closer look

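The unassigned library, whose title and genotype entry disagree, entered no comparison. In some classes its level lay above every WT library, and these values are given without an explanation. H2-Q10 was at 3.04 CPM in all its nuclei (highest WT 2.08), 1.88 in capsule or fibroblast-like nuclei and 0.847 in chromaffin-like nuclei (0 in WT in both). H2-Q4 was at 129 CPM in Schwann or sustentacular-like (highest WT 47.6), 21.8 in adipocyte-like (7.32) and 53.8 in macrophage-like nuclei (27.7). H2-Q6 was at 9.62 CPM in all nuclei (8.04) and 28.7 in adipocyte-like nuclei (3.85). B2m was at 57.5 CPM in all nuclei (53.9), 197 in Schwann or sustentacular-like (80.5), 67.7 in adipocyte-like (45.7), 227 in macrophage-like (183) and 38.7 in zona fasciculata-like nuclei (29.6). The hepatocyte-like nuclei of KO replicate 1 entered only the comparison of all nuclei. There they gave 388 of the 666 H2-Q10 UMIs of that library. They held H2-Q10 at 622 CPM, where the single hepatocyte-like nucleus of WT replicate 2 and of WT replicate 3 held 0 UMIs each.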

How the results depend on the processing

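The log2 fold of H2-K1 was above 0 in 245 of 245 alternative fits over the 14 comparisons. In zona glomerulosa-like nuclei, where it is a description, it was 0.95 to 1.48, and it missed the threshold without a batch term (1.25) or when the unassigned library joined the KO group (0.95). H2-Q10 in adipocyte-like nuclei kept its direction (1.76 to 2.79) and was called in 11 of 18. Counts of called genes moved by more than 1.5 times in 132 of 245 fits and counts of called members in 48 of 245, and the cause was not tested. They are given below as genes, then members.

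In all nuclei (0 genes and 0 members in the report's fit) DESeq2 called 57 and 2, median UMIs in place of batch 13 genes, and no filter on low counts 423 and 2. In adipocyte-like nuclei (17 and 1) the counts were 6 and 0 with median UMIs, 112 and 2 with no filter, 0 and 0 with no batch term, 0 and 0 in nuclei with 0 UMIs of Alb, Apoa2 and Ttr, 1 and 0 in nuclei with at least 1000 genes, 10 and 0 with the unassigned library as KO and 0 and 0 with it as WT, 2 genes with doublets kept, and 2 members with DESeq2 size factors in edgeR. In endothelial-like nuclei (1 gene) the count was 2 with DESeq2 and with its size factors, 55 with median UMIs, 43 with no filter, 0 with doublets kept, with no batch term and with the unassigned library as KO, 2 in nuclei without the liver genes and 22 in nuclei with at least 1000 genes. In zona glomerulosa-like nuclei (44 and 1) the counts were 97 and 2 with median UMIs, 271 and 3 with no filter, 11 and 2 with doublets kept, 0 and 0 with no batch term, 74 and 2 in nuclei without the liver genes, 0 and 0 with the unassigned library as KO and 4 genes with it as WT. Members numbered 2 there in nuclei with at least 1000 genes and with class I genes kept in clustering.

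Leaving out 1 library gave 9 (without WT replicate 2) to 267 genes (without KO replicate 2) and 0 to 2 members in all nuclei, 4 (without WT replicate 1) to 123 genes (without WT replicate 3) and 0 to 2 members in adipocyte-like, 0 to 44 genes in endothelial-like, and 47 to 131 genes (without KO replicate 1) and 1 to 2 members in zona glomerulosa-like nuclei. An arm left with 1 library is assumed to vary like the other. The log2 fold of Tap2 in adipocyte-like nuclei ran from −0.34 to 1.82 and that of H2-D1 in endothelial-like nuclei from −0.30 to 0.77, both negative without KO replicate 2. The other 10 comparisons had 0 to 5 genes called and up to 185 (without WT replicate 2). Members called in them, 0 in the report's fit, numbered 8 with no filter, 5 without WT replicate 2 and without WT replicate 3, 3 without KO replicate 1 and without WT replicate 1, 2 with median UMIs, 1 with DESeq2, 1 in nuclei with at least 1000 genes and 0 otherwise. A CPM value or share counted as moved unless it differed from the report's value by less than the replicate SD. This gave 5 of 213 CPM values and 35 of 39 shares. The 5 were all H2-Q10 in Schwann or sustentacular-like nuclei, where the mean and SD were 0. An unchanged 0 counted as moved there, also for the share, so these cases show no shift. Clusters 2 and 3 with doublets kept, cluster 3 with coarser or finer clusters, and nuclei with at least 1000 genes for Schwann or sustentacular-like, T or NK-like nuclei and cluster 12 were not run, since the classes were not recovered or too few nuclei remained. No paired analysis was possible because the replicate numbers follow accession order and pair no samples. Depth limits H2-T23, H2-Q6 and, outside adipocyte-like nuclei, H2-Q10 most.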
